A study of Mus musculus with 12 samples.

Results

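Schwann cells are the myelinating glia of peripheral nerve, and in a spinal cord preparation they lie in the stumps of the dorsal and ventral roots, outside the territory of oligodendrocytes. The 9 genes described here, Pmp22, Prx, Drp2, Dhh, Egr2, Ncmap, Pmp2, Cdh19 and Foxd3, were taken by gene name as markers of those cells and so as a measure of root tissue kept with the cord. All 9 were found among the 38924 genes of each file, and all 9 passed the filter on low counts that left 17995 genes. Each of 12 mice, all 1 week old, gave 1 RNA-seq library from its whole spinal cord: 3 labelled female P278KY, 3 labelled female wt, 3 labelled male P278KY and 3 labelled male wt, all on the mixed background B6J;CAST. The mutant mice carried 1 copy of the P278KY allele of Gars (GarsP278KY/+ in the series title, which also places them before disease onset); Gars encodes glycyl-tRNA synthetase, and the wt mice lack the allele. Libraries are named by label and mouse number. The members differed as a measure of root tissue. Drp2, Cdh19 and Foxd3 kept 38.5% or more of their highest level in 1 library, on which this reading rests. There the other 6 were lowest and kept 7.88% or less. With the mean of the other members r was 0.797 for Drp2, 0.837 for Foxd3 and 0.356 for Cdh19 (n = 12). Those values span separate high and low clusters of libraries. Within each labelled sex 0 of the 21 pairs with Drp2, Cdh19 or Foxd3 had an adjusted p under 0.05 (exact permutation test). Of the 15 pairs among the other 6, 14 passed in labelled males and 0 in labelled females. In labelled females the count therefore does not separate the 2 sets. In labelled males the 21 pairs still had a median r of 0.73 (n = 6). The 2 sets were formed after the values were known.

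Myelin of peripheral nerve differs from central myelin in its proteins. PMP22 is a membrane protein of compact myelin, PMP2 binds fatty acids in it, and periaxin with DRP2 links the Schwann cell membrane to dystroglycan and the basal lamina. The transcription factor EGR2, acting with SOX10, turns on this programme. Human mutations or altered dosage of PMP22, PRX, EGR2 and PMP2 cause demyelinating forms of Charcot-Marie-Tooth disease, whereas dominant GARS mutations cause an axonal form.

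Expected counts, the estimated number of fragments per gene, summed to between 27713981 and 43219891 per library. Gars averaged 101 ± 4.31 TPM in P278KY and 98.4 ± 9.56 TPM in wt libraries (SD, n = 6 each; TPM is a level scaled to transcript length and library total), with a log2 fold change of 0.07 ± 0.05 (SE; edgeR adjusted p = 1); the mutation alters the protein, so this does not check the genotype labels. Sex marks went against the label in 2 libraries. The library labelled female wt 14 had 0.12 TPM of Xist and 18.1 TPM of the Y-linked Ddx3y, and the library labelled male wt 19 had 127 TPM of Xist and 0.01 TPM of Ddx3y. In the other 5 libraries labelled female Xist was at 129 to 147 TPM. Oligodendrocyte genes such as Mbp (7255 to 12921 TPM) were abundant in every library, a check of the labelled tissue. In bulk tissue, fewer cells of a type and less RNA per cell cannot be told apart.

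By Ensembl identifier, the annotation (GENCODE M21 on GRCm38) places Pmp22 (ENSMUSG00000018217) at chr11:63128982-63159547, Prx (ENSMUSG00000053198) at chr7:27499324-27520214 and Egr2 (ENSMUSG00000037868) at chr10:67535475-67542188. Drp2 (ENSMUSG00000000223) is at chrX:134404551-134456573 and Foxd3 (ENSMUSG00000067261) at chr4:99656299-99658622, and these 5 are on the plus strand. On the minus strand are Dhh (ENSMUSG00000023000) at chr15:98891152-98898540, Ncmap (ENSMUSG00000043924) at chr4:135369576-135398227, Pmp2 (ENSMUSG00000052468) at chr3:10179851-10183929 and Cdh19 (ENSMUSG00000047216) at chr1:110888326-110977584. Values are per gene, summed over its transcripts.

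Promoter windows of Egr2, Pmp22 and Prx are shown because EGR2 and SOX10 are the known regulators of peripheral myelin genes. RefSeq windows (GRCm38.p6; 250 bases before to 50 after a start) were found for 6 of the 9 members and 14 starts in all; Drp2, Pmp2 and Cdh19 had none in the table. The EGR core GTGGGCG and the SOX core ACAANG were searched on both strands, and they did not overlap each other in any window of a member. Of the 14 windows 4 are printed: the 2 with a match, the first listed of Pmp22 and the only 1 of Prx. Matches are in capitals.
Egr2, chr10:67535249-67535548, plus strand: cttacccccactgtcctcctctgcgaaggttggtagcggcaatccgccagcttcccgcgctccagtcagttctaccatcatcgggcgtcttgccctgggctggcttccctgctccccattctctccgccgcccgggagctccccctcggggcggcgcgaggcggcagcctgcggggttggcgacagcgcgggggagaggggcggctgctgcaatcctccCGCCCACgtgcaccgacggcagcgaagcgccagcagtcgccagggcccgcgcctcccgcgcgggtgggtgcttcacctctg
Egr2, chr10:67537316-67537615, plus strand: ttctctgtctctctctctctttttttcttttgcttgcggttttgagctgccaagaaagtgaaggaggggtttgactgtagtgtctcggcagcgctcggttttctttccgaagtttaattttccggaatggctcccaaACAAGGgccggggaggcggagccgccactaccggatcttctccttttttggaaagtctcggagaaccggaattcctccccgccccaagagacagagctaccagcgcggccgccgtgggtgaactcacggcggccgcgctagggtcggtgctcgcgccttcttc
Pmp22, chr11:63128732-63129031, plus strand: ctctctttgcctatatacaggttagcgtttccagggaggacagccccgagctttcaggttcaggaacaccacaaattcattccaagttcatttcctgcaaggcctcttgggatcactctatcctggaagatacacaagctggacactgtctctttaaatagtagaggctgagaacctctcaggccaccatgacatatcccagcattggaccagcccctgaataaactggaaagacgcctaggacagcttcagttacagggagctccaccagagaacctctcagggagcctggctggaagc
Prx, chr7:27499074-27499373, plus strand: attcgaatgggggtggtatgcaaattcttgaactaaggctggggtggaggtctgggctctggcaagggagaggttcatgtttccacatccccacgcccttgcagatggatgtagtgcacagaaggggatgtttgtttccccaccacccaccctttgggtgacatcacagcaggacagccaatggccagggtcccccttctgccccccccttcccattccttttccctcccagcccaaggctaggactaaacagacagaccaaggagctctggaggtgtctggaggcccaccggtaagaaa
The EGR core was in 1 of the 14 windows, at an Egr2 start, and in 7.97% of all 32851 windows. The SOX core was also in 1 of the 14, at another Egr2 start, and in 41.2% of all windows. The windows of Pmp22, Prx, Dhh, Ncmap and Foxd3 held neither.

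Across the 12 mice 6 of these genes spanned a wide range of levels, and both genotypes held high and low libraries. Of the 15565 genes with a mean of at least 1 TPM and no library at 0, 1.82% had a highest library more than 10 times the lowest. Among the members Pmp22, Prx, Dhh, Egr2, Ncmap and Pmp2 did so, and Drp2, Cdh19 and Foxd3 did not. The ratio of highest to lowest was 317 for Pmp2, 84.9 for Prx, 45.4 for Dhh, 24.0 for Egr2, 22.4 for Pmp22 and 12.7 for Ncmap, against 2.78 for Foxd3, 1.89 for Cdh19 and 1.80 for Drp2. A ratio above 2, which Foxd3 also passed, was found for 19.4% of the same genes. The 6 labelled female libraries and male wt 6 held the 7 highest levels of Pmp22, Prx, Dhh, Egr2, Ncmap and Pmp2, and male P278KY 3 held the lowest level of 8 of the 9 members, all but Foxd3.

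Compact myelin genes come first. Pmp22, a tetraspan membrane protein of peripheral myelin, stood at 541, 513 and 349 TPM in labelled female P278KY 4, 7 and 10, against 559, 611 and 573 TPM in labelled female wt 1, 2 and 14. In labelled males it was 27.2, 178 and 165 TPM in P278KY 3, 5 and 13, against 602, 70.7 and 191 TPM in wt 6, 9 and 19. Every labelled female P278KY library thus lay below every labelled female wt library, whereas the labelled males overlapped. The range over all 12 libraries rested on male P278KY 3 at the low end, with 773 counts of Pmp22.

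Pmp2, the fatty acid binding protein of peripheral myelin, had 51.2, 82.5 and 41.5 TPM in labelled female P278KY 4, 7 and 10, against 55.6, 61.2 and 69.9 TPM in labelled female wt 1, 2 and 14. It had 0.26, 13.2 and 19.3 TPM in labelled male P278KY 3, 5 and 13, against 80.8, 7.11 and 22.03 TPM in labelled male wt 6, 9 and 19. The genotypes overlapped in both sexes. Pmp2 had the widest range of the members, with 6 counts in male P278KY 3 and 1931 in male wt 6. Pmp2 shares 4078 bases of its span with the protein-coding gene Gm37389 on the same strand, which was not among the deposited genes. Whether fragments of Gm37389 were counted as Pmp2 was not tested.

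Ncmap, a membrane protein of noncompact myelin, was at 21.75, 21.5 and 17.3 TPM in labelled female P278KY 4, 7 and 10, against 28.1, 26.4 and 27.3 TPM in labelled female wt 1, 2 and 14. Labelled males had 2.24, 7.40 and 7.91 TPM in P278KY 3, 5 and 13, against 28.4, 2.73 and 9.28 TPM in wt 6, 9 and 19. The labelled female genotypes did not overlap, and those of the labelled males did.

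**Figure D1:**
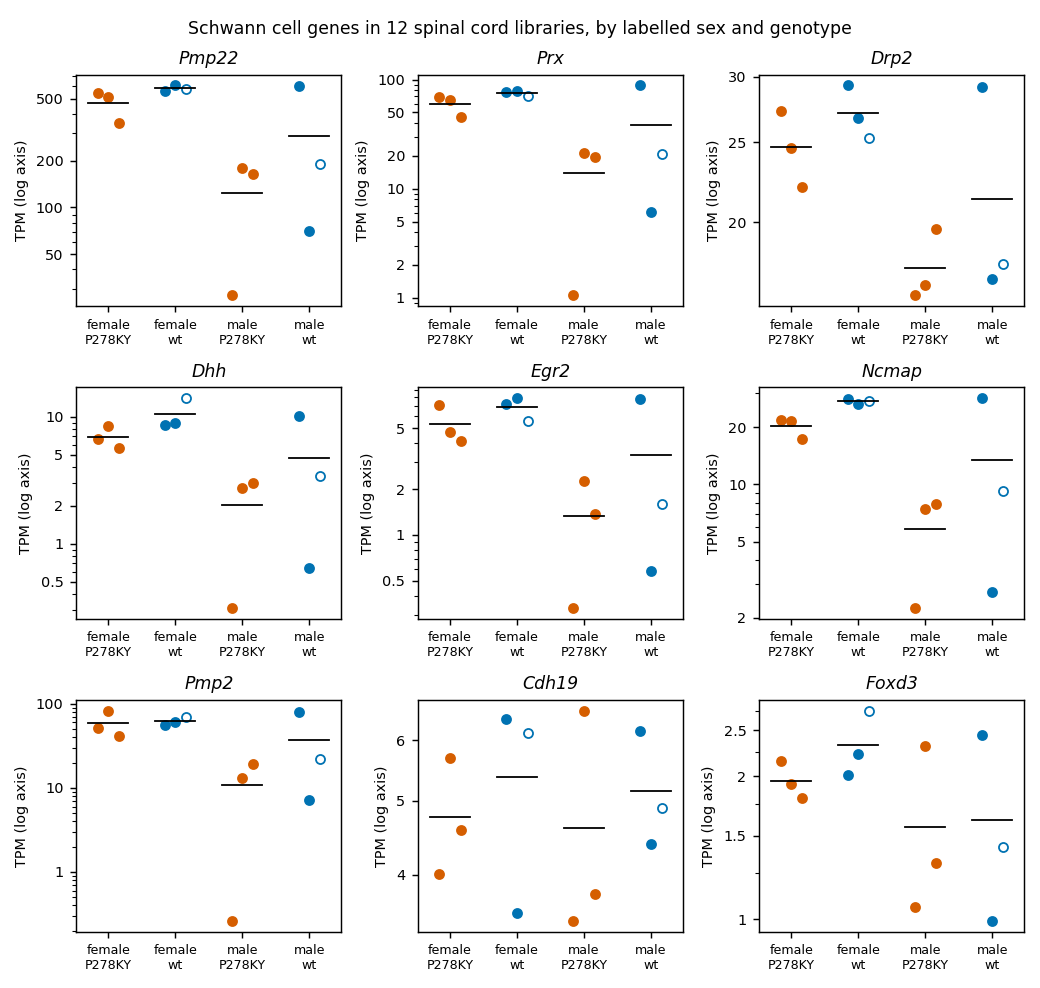
Level of each of the 9 genes in each library (TPM, log axis), P278KY in orange and wt in blue, by labelled sex; bars are group means and open symbols are the 2 libraries whose sex marks went against their labels. Pmp22, Prx, Dhh, Egr2, Ncmap and Pmp2 are high in all labelled females and in male wt 6 and lowest in male P278KY 3, while Drp2, Cdh19 and Foxd3 range by ratios of 1.80 to 2.78.

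Periaxin and its partner come next. Prx, which encodes periaxin, had 69.4, 65.4 and 45.2 TPM in labelled female P278KY 4, 7 and 10, against 76.3, 79.2 and 71.0 TPM in labelled female wt 1, 2 and 14. It had 1.05, 21.1 and 19.65 TPM in labelled male P278KY 3, 5 and 13, against 89.1, 6.05 and 20.8 TPM in labelled male wt 6, 9 and 19. Labelled females again did not overlap by genotype, and labelled males did. Prx overlaps the antisense gene Gm15541 over 5405 bases. Gm15541 held at most 118 counts in a library, and Prx held 93 to 8756. Whether fragments of Gm15541 were counted as Prx was not tested.

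Drp2, the dystrophin relative that periaxin binds, had 27.3, 24.6 and 22.1 TPM in labelled female P278KY 4, 7 and 10, against 29.3, 26.7 and 25.3 TPM in labelled female wt 1, 2 and 14. In labelled males it had 16.3, 16.8 and 19.6 TPM in P278KY 3, 5 and 13, against 29.2, 17.1 and 17.8 TPM in wt 6, 9 and 19. Its order of libraries resembled that of Prx, with all labelled females and male wt 6 on top, but its floor was high: 1976 counts remained in male P278KY 3, where Prx had 93.

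Egr2, the transcription factor that drives peripheral myelination, was at 7.17, 4.77 and 4.15 TPM in labelled female P278KY 4, 7 and 10, against 7.28, 7.93 and 5.62 TPM in labelled female wt 1, 2 and 14. It was at 0.33, 2.27 and 1.38 TPM in labelled male P278KY 3, 5 and 13, against 7.85, 0.58 and 1.60 TPM in labelled male wt 6, 9 and 19. The genotypes overlapped in both sexes. Egr2 is also induced by activity in neurons. In male P278KY 3, where 16 counts of Egr2 were found, 8 other immediate early genes summed to 34.1 TPM, against 34.6 to 48.2 TPM in the other libraries.

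Dhh, the hedgehog ligand by which Schwann cells organise the sheath of the nerve, had 6.73, 8.45 and 5.66 TPM in labelled female P278KY 4, 7 and 10, against 8.60, 8.95 and 14.1 TPM in labelled female wt 1, 2 and 14. It had 0.31, 2.75 and 3.02 TPM in labelled male P278KY 3, 5 and 13, against 10.1, 0.64 and 3.44 TPM in labelled male wt 6, 9 and 19. The labelled female genotypes did not overlap. The highest Dhh level was in the library labelled female wt 14, where sensory ganglion neuron genes summed to 152 TPM against at most 6.0 TPM elsewhere, and their part in this value was not tested. Dhh shares 3389 bases of its span with Rhebl1 on the same strand. Rhebl1 held at most 135 counts in a library, and Dhh held 13 to 545. Whether fragments of Rhebl1 were counted as Dhh was not tested.

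Cdh19 and Foxd3 mark earlier or other members of the lineage. Cdh19, a cadherin of Schwann cell precursors, had 4.01, 5.69 and 4.58 TPM in labelled female P278KY 4, 7 and 10, against 6.40, 3.57 and 6.13 TPM in labelled female wt 1, 2 and 14. It had 3.48, 6.56 and 3.78 TPM in labelled male P278KY 3, 5 and 13, against 6.17, 4.39 and 4.89 TPM in labelled male wt 6, 9 and 19. Its levels overlapped between genotypes and between labelled sexes, and its highest library was male P278KY 5, in which the myelin genes above were low.

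Foxd3, a neural crest transcription factor that is also made in a class of spinal interneurons, had 2.15, 1.93 and 1.80 TPM in labelled female P278KY 4, 7 and 10, against 2.01, 2.23 and 2.75 TPM in labelled female wt 1, 2 and 14. It had 1.06, 2.32 and 1.31 TPM in labelled male P278KY 3, 5 and 13, against 2.44, 0.99 and 1.42 TPM in labelled male wt 6, 9 and 19. Genotypes overlapped in both sexes. Foxd3 was the scarcest member, with 37 to 109 counts a library.

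By mean TPM over the 12 libraries the order was Pmp22 (365 ± 225), Prx (47.0 ± 31.6), Pmp2 (42.1 ± 29.0), Drp2 (22.7 ± 5.0), Ncmap (16.7 ± 10.2), Dhh (6.06 ± 4.17), Cdh19 (4.97 ± 1.16), Egr2 (4.24 ± 2.93) and Foxd3 (1.87 ± 0.56; SD, n = 12). Pmp22 exceeded Prx, and Ncmap exceeded Dhh, in 12 of 12 libraries, and Drp2 exceeded Ncmap in 11. The other neighbours changed places between libraries: Prx was above Pmp2 in 9, Pmp2 above Drp2 in 8, Dhh above Cdh19 in 7, Cdh19 above Egr2 in 8 and Egr2 above Foxd3 in 9. In male P278KY 3 the order turned, with Pmp22 at 27.2, Drp2 at 16.3 and Cdh19 at 3.48 TPM above the rest and Pmp2 last.

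What was left of each member in male P278KY 3, the library with the lowest summed level of the 9 (52.2 TPM), differed widely. As a percentage of the highest library, male P278KY 3 kept 0.315% of Pmp2, 1.18% of Prx, 2.2% of Dhh, 4.16% of Egr2, 4.45% of Pmp22 and 7.88% of Ncmap. It kept 38.5% of Foxd3, 53.0% of Cdh19 and 55.6% of Drp2. These are values of a single library and have no replicate check. Ncmap had 31 counts in male P278KY 3, against 736 in male wt 6, its highest library. Its deposited mean length was 910 bases in male P278KY 3, against 1375 to 1536 in the others. TPM is scaled to length, so the 7.88% and the ratio of 12.7 depend on that length too.

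The members' correlations were computed within each labelled sex, because over all 12 libraries the values fell into separate high and low clusters. This split did not remove the clusters among labelled males. The members summed to 856 TPM in male wt 6 and to 52.2 to 272 TPM in the other labelled males. Both genotypes were pooled, without centring by genotype. Among the 6 labelled males, 14 of the 36 pairs of members passed an exact permutation test of Pearson's r over 720 orders (Benjamini-Hochberg over 36 pairs, smallest adjusted p = 0.0125) and 4 passed for Spearman's rho. The median r was 0.80 and the median rho 0.83. Without the 2 libraries farthest from the median, r stayed above 0 in 35 of 36 pairs, with a median of 0.72. All 14 pairs lay among Pmp22, Prx, Dhh, Egr2, Ncmap and Pmp2, a group chosen after its values were known. Among the 6 labelled females no pair passed (exact permutation, smallest adjusted p = 0.125), so no relation is read from them. The median r was 0.56 and the median rho 0.43. Without the 2 farthest libraries r was above 0 in 22 of 36 pairs, with a median of 0.08. In both labelled sexes those 2 were picked by the first gene of each pair, so they could differ between pairs. Among the 6 genes named above the median r in labelled females was 0.67, and Pmp22 ranged by a ratio of 1.75 there, against 22.1 in labelled males. The difference between the labelled sexes was not tested.

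The comparison of P278KY with wt asked whether the allele changes these transcripts before disease onset. Every member had a lower fitted level in P278KY cords, and none of the differences passed the test. With labelled sex as a term, edgeR called 0 of 9 members at an adjusted p under 0.05, against 0.00556% of all genes, and 0 had an unadjusted p under 0.05, against 4.09% of all genes. DESeq2 also called 0 of 9, against 0.183% of all genes. The 9 members with a lower fitted level compare with 53.1% of all genes, and their median log2 fold change was -0.75 against -0.0064 over all genes. The members were measured in the same libraries, so the common direction is not 9 separate observations.

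The fitted effect was larger for the 6 widely ranging genes than for Drp2, Cdh19 and Foxd3. These 2 groups were formed from the range over the same libraries, so this is not a separate observation. Dhh averaged 4.49 ± 2.99 TPM in P278KY and 7.63 ± 4.83 TPM in wt libraries (SD, n = 6 each), with a log2 fold change of -0.85 ± 0.60 (SE; edgeR adjusted p = 1). Pmp22 averaged 296 ± 207 TPM in P278KY and 434 ± 239 TPM in wt libraries (SD, n = 6 each), and its log2 fold change was -0.71 ± 0.56. Those of Egr2, Pmp2, Prx and Ncmap were -0.85 ± 0.62, -0.85 ± 0.77, -0.84 ± 0.73 and -0.75 ± 0.54. Drp2, at -0.15 ± 0.10, Cdh19, at -0.12 ± 0.17, and Foxd3, at -0.11 ± 0.22, had both smaller effects and smaller errors. The edgeR adjusted p was 1 for each of them.

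The spread behind those errors was large. The biological coefficient of variation from edgeR was 92.0% for Pmp2, 82.5% for Prx, 63.6% for Pmp22 and 62.8% for Ncmap, against a common value of 23.9%. Among genes of similar mean level, Pmp2, Pmp22 and Prx lay at percentiles 99.4 to 99.6 and Ncmap, Dhh and Egr2 at 96.2 to 96.6. The coefficient was 13.03% for Drp2, 24.0% for Cdh19 and 29.0% for Foxd3. Among genes of similar mean level these lay at percentiles 87.6, 81.2 and 49.7.

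The genotype difference depended on a few labelled males. Without male wt 6 the median log2 fold change of the members was -0.17, and without male P278KY 3 it was -0.50. Without male wt 6, Egr2 had -0.12, Prx -0.17 and Pmp22 -0.19, and Foxd3 changed sign to 0.029. No member was called by genotype with any single library left out, and none had all 6 P278KY libraries below all 6 wt libraries in TPM, against 0.133% of all genes.

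**Figure D2:**
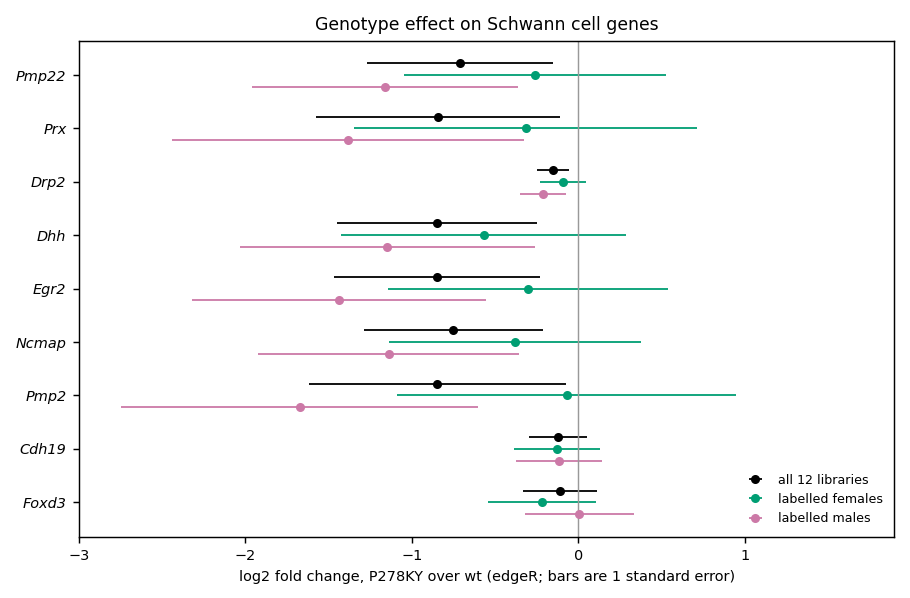
Log2 fold change of each gene, P278KY over wt, from edgeR over all 12 libraries (black), in labelled females (green) and in labelled males (pink); bars are 1 standard error. All bars for the strongly varying genes are wide, and in labelled males the fitted effects of Pmp22, Prx, Dhh, Egr2, Ncmap and Pmp2 lie between -1.14 and -1.68.

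Within labelled females the fitted levels of all 9 members were lower in P278KY, against 51.9% of all genes, with a median log2 fold change of -0.26. Pmp22, Prx, Dhh and Ncmap had all 3 P278KY libraries below all 3 wt libraries in TPM, a pattern shown by 8.49% of all genes. Without the library labelled female wt 14, an alternative chosen after seeing the data, these 4 and Egr2 had all 3 P278KY libraries below both others, against 13.6% of all genes. The library labelled male wt 19, which carried Xist, lay below every labelled female P278KY library in all 4 genes, so with wt libraries taken by their sex marks the pattern would not hold. EdgeR called 0 of 9 members and 0% of all genes, with 0 members at an unadjusted p under 0.05 against 10.7% of all genes, and DESeq2 called 0 of 9 against 1.64% of all genes. The spread in that fit was shared with the labelled males. With the 6 labelled female libraries fitted alone, an alternative chosen after seeing the data, the standard errors were smaller and Ncmap had -0.38 ± 0.09 (edgeR unadjusted p = 0.00393, adjusted p = 0.497), Dhh -0.57 ± 0.23 (edgeR adjusted p = 0.615), Prx -0.31 ± 0.15 (edgeR adjusted p = 0.653) and Pmp22 -0.26 ± 0.16 (edgeR adjusted p = 0.735). Ncmap and Dhh were the 2 members with an unadjusted p under 0.05 there, against 7.93% of all genes, and none passed the adjusted threshold.

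Within labelled males 8 of 9 members had a lower fitted level in P278KY, all but Foxd3, against 50.7% of all genes, with a median log2 fold change of -1.15. No member had all 3 P278KY libraries below all 3 wt libraries, against 7.39% of all genes. Pmp2 had -1.68 ± 1.07 and Egr2 -1.44 ± 0.88 (edgeR adjusted p = 0.957 and 0.952). EdgeR called 0 of 9 members, 0 at an unadjusted p under 0.05 against 4.91% of all genes, and DESeq2 called 0 against 0.189%. With the 6 labelled male libraries fitted alone, also chosen after seeing the data, edgeR called 0 of 9 against 0.0172% of all genes, with 0 at an unadjusted p under 0.05 against 5.68%. For the difference of the effects between labelled sexes, edgeR called 0 of 9 and 0% of all genes, and DESeq2 called 0 of 9 against 1.55%, with 0 at an edgeR unadjusted p under 0.05 against 10.9% of all genes; Pmp2 had 1.61 ± 1.47 (edgeR adjusted p = 0.736).

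Labelled sex was a term of the genotype fit, and its comparison was added with the values known. For all members but Cdh19 its fitted difference was larger in size than that of genotype, which was not tested. Pmp22 averaged 524 ± 91.7 TPM in labelled females and 206 ± 205 TPM in labelled males (SD, n = 6 each), with a log2 fold change of 1.45 ± 0.57 (SE; edgeR unadjusted p = 0.03, adjusted p = 1). Drp2 averaged 25.9 ± 2.5 TPM in labelled females and 19.5 ± 4.91 TPM in labelled males (SD, n = 6 each), with 0.33 ± 0.10 (edgeR unadjusted p = 0.00437, adjusted p = 0.818). In all, 8 of 9 members had a higher fitted level in labelled females, against 51.7% of all genes, and 4, Pmp22, Drp2, Dhh and Ncmap, had an edgeR unadjusted p under 0.05, against 4.6% of all genes in either direction. None passed after adjustment in edgeR (0% of all genes) or DESeq2 (0.15% of all genes). No member had every labelled male below every labelled female, against 0.289% of all genes, and male wt 6 lay above the lowest labelled female for each of the 9. Without male wt 6, Drp2 passed (log2 fold change 0.43 ± 0.06; edgeR adjusted p = 0.0344) as 1 of 25 genes, 0.137% of those tested in that fit; with any other single library left out 0 members did.

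The levels of the 2 libraries with discordant sex marks were as follows. The library labelled female wt 14, which carried Ddx3y, summed to 795 TPM over the 9 members, against 492 to 827 TPM in the other labelled females and 52.2 to 856 TPM in the labelled males. The library labelled male wt 19, which carried Xist, summed to 272 TPM, below every labelled female and within the range of the other labelled males. The ranges of the labelled sexes overlapped through male wt 6, so the level of the library labelled female wt 14 does not place it with either. The labels give no day or order of dissection, and labelled sex cannot be told apart from anything that went with it.

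Genes of the same cells and of neighbouring tissues were read from 15 further lists with 115 tested genes. By genotype edgeR called 0 of the 115, against 0.00556% of all genes, and DESeq2 called 0, against 0.183%. An edgeR unadjusted p under 0.05 was found for 9, against 4.09% of all genes. These 9 were Itgb4, Ptch1, Shh, Scn10a, Prdm12 and the muscle genes Myh3, Mylpf, Acta1 and Myl1. For the counts of higher and lower genes in each list, 53.1% of all genes had a lower fitted level in P278KY. The summed level of other Schwann cell genes was high and low in the same libraries, with Cldn19 a large part of the high sums. Of 7 listed genes tested, 0 were called by genotype; all 7 had a lower fitted level, with a median log2 fold change of -0.62. Itgb4, an integrin subunit, had -0.42 ± 0.15 and Scn7a, a sodium channel gene, -0.90 ± 0.48 (edgeR adjusted p = 1 for both). The summed level of the 7 was 12.3 TPM in male P278KY 3, the lowest library, and 83.8 TPM in male wt 6. The highest was 92.5 TPM in the library labelled female wt 14. Cldn19 alone gave 0.70, 48.4 and 39.3 TPM of these sums. Whether the list follows the members without Cldn19 was not tested. Regulators of Schwann cells that cord cells also make had smaller fitted differences. Of 14 tested, 0 were called, 9 had a higher and 5 a lower fitted level, and the median was 0.03. Sox10, the partner of EGR2 that oligodendrocytes also express, had 75.7 TPM in male P278KY 3 and 73.4 TPM in male wt 6. Nrg1, the axonal growth factor for Schwann cells, had -0.14 ± 0.11, and Ngfr, a neurotrophin receptor gene, -0.48 ± 0.40 (edgeR adjusted p = 1 for both).

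Partners of the members are given next. Of 12 tested genes of the dystroglycan complex, which joins periaxin and DRP2 to the basal lamina, 0 were called, 6 had a higher and 6 a lower fitted level in P278KY, and the median was 0.0065. Dtna, the dystrobrevin gene, had 0.06 ± 0.05 and Utrn, the utrophin gene, -0.15 ± 0.13 (edgeR adjusted p = 1 for both). Of 13 genes of the hedgehog pathway in which Dhh is a ligand, 0 were called, 5 had a higher and 8 a lower fitted level, with a median of -0.05. Ptch1, the hedgehog receptor and a target of the pathway, had -0.22 ± 0.06, and Shh, the ligand of the floor plate, -0.35 ± 0.16 (edgeR adjusted p = 1 for both).

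Lists of other tissues show what moved beside these genes, where 53.1% of all genes had a lower fitted level in P278KY. Of 9 oligodendrocyte genes 0 were called, 8 had a higher and 1 a lower fitted level in P278KY, led by Aspa at 0.25 ± 0.19 and Ermn at 0.19 ± 0.24 (edgeR adjusted p = 1 for both), and their summed level was 11906 to 20957 TPM in P278KY and 12415 to 20907 TPM in wt libraries. The 8 skeletal muscle genes all had a higher fitted level in P278KY, led by Myh3 at 2.43 ± 0.89 and Acta1 at 3.12 ± 1.33 (edgeR adjusted p = 1 for both), and summed to 109 to 3354 TPM in P278KY and 10.2 to 1293 TPM in wt libraries. Their highest sum was in male P278KY 3, the library lowest in Schwann cell genes; their part in the result was not tested. Sensory ganglion neuron genes summed to 2.44 to 5.19 TPM in P278KY and 2.89 to 152 TPM in wt libraries; all 7 tested had a lower fitted level, led by Prdm12 at -4.27 ± 1.32 and Scn10a at -4.17 ± 1.53 (edgeR adjusted p = 1 for both), and the top wt value was the library labelled female wt 14. The members summed to 856 TPM in male wt 6, where ganglion genes summed to 2.89 TPM. Genes of fibroblasts and meninges summed to 521 to 904 TPM in P278KY and 358 to 1567 TPM in wt libraries, led by Col1a2 at 0.40 ± 0.35 and Lum at 0.50 ± 0.47 (edgeR adjusted p = 1 for both).

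**Figure D3:**
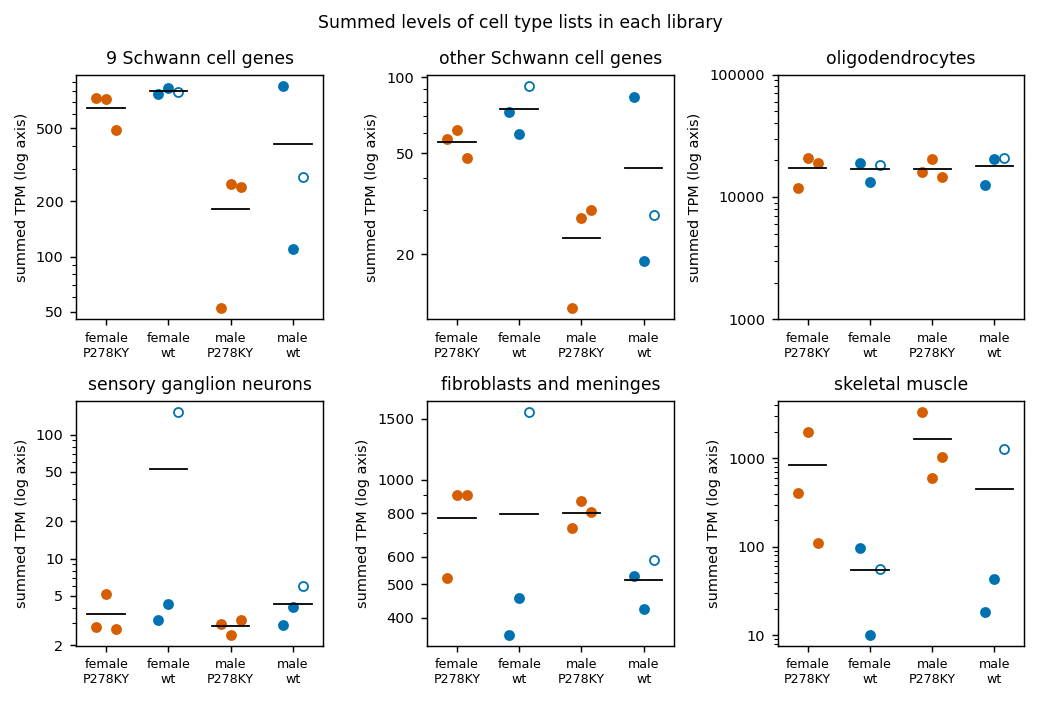
Summed TPM of 6 lists in each library (log axis), P278KY in orange and wt in blue, by labelled sex; bars are group means and open symbols the 2 libraries whose sex marks went against their labels. The 9 genes and the other Schwann cell genes are both lowest in male P278KY 3, oligodendrocyte genes stay between 11906 and 20957 TPM, and ganglion genes are high in the library labelled female wt 14 alone.

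In the remaining lists the genes with the smallest p were Pdgfra at 0.07 ± 0.05 and Olig1 at -0.07 ± 0.08 for oligodendrocyte precursors, Aqp4 at 0.13 ± 0.10 and Gjb6 at -0.15 ± 0.14 for astrocytes, and Cx3cr1 at 0.08 ± 0.10 and Tmem119 at 0.13 ± 0.24 for microglia (edgeR adjusted p = 1 for each). For motor neurons they were Mnx1 at -0.30 ± 0.15 and Chat at -0.29 ± 0.16, for immediate early genes Nr4a1 at -0.10 ± 0.09 and Arc at -0.12 ± 0.12, for endothelium Pecam1 at 0.11 ± 0.09 and Cdh5 at 0.10 ± 0.13, and for bone and cartilage Ibsp at 0.74 ± 0.47 and Sp7 at 0.36 ± 0.25 (edgeR adjusted p = 1 for each).

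The 10 genes whose log2 CPM was most like the mean of the standardised members over the 12 libraries were Cldn19, Plekha4, Egfl8, Itpr3, Gldn, Gas2l3, Sema3b, Arhgap19, Il16 and Emid1, with Pearson's r of 0.952 to 0.989, given as a description since they were picked for it. Cldn19, a claudin of Schwann cell junctions, had the highest r and stood at 0.70 TPM in male P278KY 3, against 48.4 TPM in male wt 6. Gldn, the gliomedin gene of nodes of Ranvier, had 0.55 TPM in male P278KY 3, against 6.76 TPM in male wt 6. Of the members themselves, each set against the mean of the other 8, Ncmap had r = 0.985, Pmp22 0.983, Prx 0.978, Dhh 0.978, Egr2 0.976, Pmp2 0.927, Foxd3 0.837, Drp2 0.797 and Cdh19 0.356, over the same 12 libraries.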

How the data were processed

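Libraries were made from poly(A) RNA with KAPA mRNA kits and sequenced as 75 bp pairs, per the labels' protocols. The submitters' processing notes list Bowtie2 2.2.0 with RSEM 1.2.12; for build, annotation and strand setting the source text is silent (not given in the sources used here). The deposited expected count is the authors' estimate of fragments per gene; TPM, as deposited by the authors, is scaled to length and library total; the deposited length is a mean over a gene's transcripts.

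Expected counts were rounded, filtered with filterByExpr and scaled by TMM. edgeR 4.0.16 quasi-likelihood tests (robust; R 4.3.3) gave genotype with labelled sex as a term, and within-sex effects and the interaction from 1 mean per group, with Benjamini-Hochberg adjustment over all 17995 genes. Each SE is the log2 fold change divided by sqrt(F); log2 CPM used a prior count of 2. DESeq2 1.42.0, limma 3.58.1 (voom, and trend on log2(TPM + 1)), other factors and filters, and omission of libraries were alternatives. The fit was tested on simulated data. Positions came from GENCODE M21 (GRCm38), matched on Ensembl identifiers.

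The members and the 15 other lists were chosen with earlier results of these data known; 126 of the 128 symbols, members included, were found; 1 further item is not reported here. Named genes are all members, Gars, in each list those past the threshold or else the 2 with the smallest p, and the 10 most like the members; other names were chosen after their values were seen. Correlations planned over 12 libraries were computed within labelled sex, and the planned r centred within genotype was not computed. Replicates are separate mice.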

Additional observations from a re-analysis of the deposited data

Results flagged for a closer look

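Libraries were examined by Dixon's ratio in TPM, the gap to the next library over the range. By this rule none of the 9 members had a library standing apart from the other 5 of its genotype. In TPM a gap at the low end weighs little. Prx had 1.05 TPM in male P278KY 3, 19.65 TPM in the next P278KY library and 69.36 TPM in the highest. Levels on a log scale were not examined. Of 50 groups of 6 libraries examined, 8 had a library standing apart, where chance gives about 1 in 20 for independent normal values. The groups share the same 12 libraries, and several of the 8 are the library labelled female wt 14. No excess over chance is read from the count. Sensory ganglion neuron genes summed to 152 TPM in the library labelled female wt 14, where the next wt library had 6.0 TPM, and to 5.19 TPM in female P278KY 7, where the next P278KY library had 3.22 TPM. The library labelled female wt 14 also stood above the other wt libraries for motor neuron genes (266 TPM), fibroblast and meningeal genes (1567 TPM), bone and cartilage genes (131 TPM) and immediate early genes (48.2 TPM), while its Schwann cell members summed to 795 TPM, inside the range of the other labelled females. Skeletal muscle genes summed to 1293 TPM in the library labelled male wt 19, above the other wt libraries. Gars was at 92.6 TPM in female P278KY 10, below the other P278KY libraries.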

How the results depend on the processing

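With other factors, filters, omitted libraries and DESeq2, 0 members were called by genotype, within a labelled sex or for the interaction; limma-voom and limma-trend, run for genotype only, also called 0. Genes called by genotype over the whole table numbered 1 in the main edgeR fit, 33 in DESeq2, 2 without a sex term, 0 with the strict filter, 0 without both libraries whose sex marks go against their labels, and 1 to 3 with each library left out. Members with a lower fitted level numbered 8 to 9, their median log2 fold change was -0.93 to -0.17, and members called by labelled sex numbered 0 to 1 with each library left out. With each library left out Foxd3 ran from -0.29 to 0.029, positive only without male wt 6; the cause was not tested. No paired analysis was possible because the groups share no mouse number. Male P278KY 3 held 13 counts of Dhh and 6 of Pmp2, which limits what can be said of these genes there. Its expected counts summed to 32421525, within the range of the other libraries.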

Other observations

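The deposited mean transcript length, which RSEM weights by the estimated share of each transcript, was shortest for 3 of the 5 members with more than 1 transcript in the 2 libraries with the lowest summed level of the 9 members. For Ncmap it was 910 bases in male P278KY 3 and 1375 in male wt 9, against 1411 to 1536 in the others. For Prx it was 4680 bases in male P278KY 3 and 4797 in male wt 9, against 4942 to 5032 in the others. For Pmp22 it was 1653 bases in male P278KY 3 and 1697 in male wt 9, against 1723 to 1775 in the others. Male P278KY 3 held 31 counts of Ncmap and 93 of Prx, so these lengths rest on few fragments there. The other 2 did not follow this: Drp2 was longest in male wt 9 (6409 bases) and had 6347 bases in male P278KY 3, against 6143 to 6403 in the others, and Egr2 had 2093 bases in male wt 9 and 2649 in male P278KY 3, against 2254 to 2965 in the others. Dhh, Pmp2, Cdh19 and Foxd3 are listed with 1 transcript each, so their length cannot vary.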
